A study of Mus musculus with 29 samples.

Results

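The 39 Hox genes of the mouse were followed through RNA counts and H3K9ac peaks of embryonic cortex, with and without an inhibitor of histone deacetylases. Members were all genes of the 48709 in the count files with a symbol made of Hox, one of the letters a to d and a number. For acetylation, the members were all peaks between the first and last gene end of the 4 Hox clusters, which span 492 kb in total and merged into 42 regions, of 217697 regions over the whole genome. The question set by the design was whether TSA (trichostatin A) opens developmental loci that are silent in cortex. In RNA, 19 reads of 228698731 fell on any Hox gene, and no Hox gene had a read in more than 1 library. H3K9ac peaks in the clusters were few in every group, with 2 to 13 per library. With TSA, 0 of 20 Hox regions were gained in Tbr2-positive and 0 of 34 in Tbr2-negative nuclei, which is near the background of 0.00457% (Tbr2-positive) and 0.0471% (Tbr2-negative) of all regions.

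All libraries came from mouse cortex at E16.5, an embryonic stage of neurogenesis, dissociated into nuclei that were sorted on Tbr2, the transcription factor encoded by Eomes and a marker of basal progenitors. The RNA groups were 2 TSA and 3 vehicle libraries of Tbr2-positive nuclei and 2 TSA and 3 vehicle libraries of Tbr2-negative nuclei. The H3K9ac groups were 4 TSA and 3 vehicle libraries of Tbr2-positive nuclei and 4 TSA and 4 vehicle libraries of Tbr2-negative nuclei. No source used here gives the strain, dose, route or treatment time. The Tbr2-negative fraction holds every other cell type of the dissected tissue, and the extraction text of the RNA samples speaks of unsorted tissue although the titles name sorted fractions. No source says that replicates were separate animals, so the spread between libraries may be technical. RNA totals were 18567111 to 26282652 counts, and H3K9ac libraries held 15174087 to 30269814 ChIP tags. The 1 input per group held 20121265 tags in Tbr2-positive TSA and 30065054 in Tbr2-positive vehicle. It held 25950922 in Tbr2-negative TSA and 28524498 in Tbr2-negative vehicle. Effects of the input and of the group on the peaks cannot be told apart. Eomes checked the RNA labels: it stood at 391 and 462 CPM (counts scaled to a common library size with TMM factors) in Tbr2-positive TSA libraries and at 410, 370 and 548 CPM in Tbr2-positive vehicle libraries, against 14.1 and 8.23 CPM in Tbr2-negative TSA libraries and 22.0, 13.9 and 18.2 CPM in Tbr2-negative vehicle libraries. Every Tbr2-positive library was above every Tbr2-negative one.

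Hox genes encode homeodomain transcription factors that give cells their position along the head-to-tail axis. In the nervous system they act in the hindbrain and spinal cord, and the forebrain is known for keeping them silent. The genes lie in 4 clusters, and their order along a cluster follows the order in which they are used along the body, the low-numbered genes towards the head and the high-numbered ones towards the tail. In cells that do not use them, the clusters are known as classical targets of Polycomb repression, while acetylation of lysine 9 on histone H3 (H3K9ac) marks the starts of active genes and is removed by the deacetylases that TSA blocks.

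The start of Hoxd1 held the most often called promoter peak of the clusters. Those of Hoxd3, with a peak in few libraries, and Hoxd13, with none in the window shown, are given with it. Each sequence is the 250 bases before the annotated start, from RefSeq (GRCm38.p6), 5′ to 3′, with every CG dinucleotide in capitals. Hoxd1 lies at chr2:74762730-74762979, Hoxd3 at chr2:74711743-74711992 and Hoxd13 at chr2:74667975-74668224, all on the plus strand. Hoxb13, the Hox gene with most RNA reads, has no entry in the promoter table.
Hoxd1: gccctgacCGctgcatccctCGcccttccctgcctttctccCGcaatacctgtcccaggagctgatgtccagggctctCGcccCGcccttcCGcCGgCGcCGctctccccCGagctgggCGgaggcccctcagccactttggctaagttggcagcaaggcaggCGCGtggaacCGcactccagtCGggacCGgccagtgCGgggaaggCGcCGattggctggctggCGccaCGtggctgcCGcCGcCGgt
Hoxd3: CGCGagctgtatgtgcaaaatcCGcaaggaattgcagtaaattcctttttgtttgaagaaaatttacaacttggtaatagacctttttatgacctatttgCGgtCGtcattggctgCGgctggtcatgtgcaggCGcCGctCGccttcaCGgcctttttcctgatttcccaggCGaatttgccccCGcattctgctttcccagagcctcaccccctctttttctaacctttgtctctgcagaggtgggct
Hoxd13: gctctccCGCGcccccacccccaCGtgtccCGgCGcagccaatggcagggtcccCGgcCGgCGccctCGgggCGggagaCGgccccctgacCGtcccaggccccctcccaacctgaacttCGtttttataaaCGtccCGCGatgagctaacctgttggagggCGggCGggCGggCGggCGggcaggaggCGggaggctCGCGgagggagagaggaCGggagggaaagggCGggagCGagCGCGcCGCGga
Hoxd1 held 24 CG dinucleotides in this window, Hoxd3 12 and Hoxd13 31. A peak overlapped the Hoxd1 window in 0 of 4 Tbr2-positive TSA, 3 of 3 Tbr2-positive vehicle, 4 of 4 Tbr2-negative TSA and 4 of 4 Tbr2-negative vehicle libraries. The Hoxd3 window was overlapped in 1 of 4 Tbr2-positive TSA, 2 of 3 Tbr2-positive vehicle, 0 of 4 Tbr2-negative TSA and 1 of 4 Tbr2-negative vehicle libraries, and the Hoxd13 window in 0 of 15 libraries. A peak inside the Hoxd13 gene, past its window, was called in 1 of 4 Tbr2-negative vehicle libraries. Of these 3 windows, that of Hoxd13 had most CG dinucleotides and no peak. It was picked for display with its peaks known, so this contrast is no result. Over the 24 promoters of 22 Hox genes in the table, the median was 12.5 CG per 250 bases, against 6 over all 32851 promoters, and 19 of the 24 lay above that overall median. At least 1 CG was found in 100% of Hox promoters and in 92.1% of all promoters, on either strand since CG reads the same on both.

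RNA of the Hox genes was close to nil in every group. Of the 39 genes, 28 had no read in any of the 10 libraries, and the other 11 had reads in 1 library each, so 11 of 390 pairs of gene and library held a count. Hoxb13, the most tailward gene of its cluster, had 5 counts in Tbr2-positive vehicle library 2 and 0 in the other 9 libraries. Hoxa9, a gene of trunk and blood-forming tissue, had 3 counts in Tbr2-negative TSA library 1 and 0 elsewhere. These were the highest counts of any member. Hoxd9, used in the caudal spinal cord, had 2 counts in Tbr2-positive TSA library 2, and Hoxd13, known for its role in digits, had 2 in Tbr2-positive vehicle library 1. The remaining genes had 1 count each: Hoxc8 in Tbr2-positive TSA library 1, Hoxa6 and Hoxb4 in Tbr2-positive vehicle library 2, Hoxb1 and Hoxb6 in Tbr2-positive vehicle library 3, and Hoxb2 and Hoxc10 in Tbr2-negative TSA library 1. Of these, Hoxb1, Hoxb2 and Hoxb4 are known for their roles in the hindbrain and the others in the trunk. By cluster, the Hoxa genes drew 4 counts on 2 of 11 genes, the Hoxb genes 9 on 5 of 10, the Hoxc genes 2 on 2 of 9 and the Hoxd genes 4 on 2 of 9.

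Summed over all 39 genes, Tbr2-positive TSA libraries held 1 and 2 Hox counts and Tbr2-positive vehicle libraries 2, 7 and 2. The Tbr2-negative TSA libraries held 5 and 0 Hox counts and all 3 Tbr2-negative vehicle libraries held 0. The TSA libraries of both fractions overlapped the range of their vehicle libraries. Per 10000000 reads this came to 0.640 (95% Poisson interval 0.132 to 1.87) in Tbr2-positive TSA, 1.57 (0.785 to 2.81) in Tbr2-positive vehicle, 0.981 (0.319 to 2.29) in Tbr2-negative TSA and 0 (up to 0.606) in Tbr2-negative vehicle, where the intervals cover counting error only. A single gene at 3 counts, taken as the upper limit for a count of 0 in 1 library, would stand at 0.124 to 0.160 CPM depending on the library. Transcription below that level can be missed in a library at this depth, although the genes with 1 or 2 counts lie under it. In such bulk libraries, few cells with a transcript and many cells with little of it cannot be told apart.

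**Figure D1:**
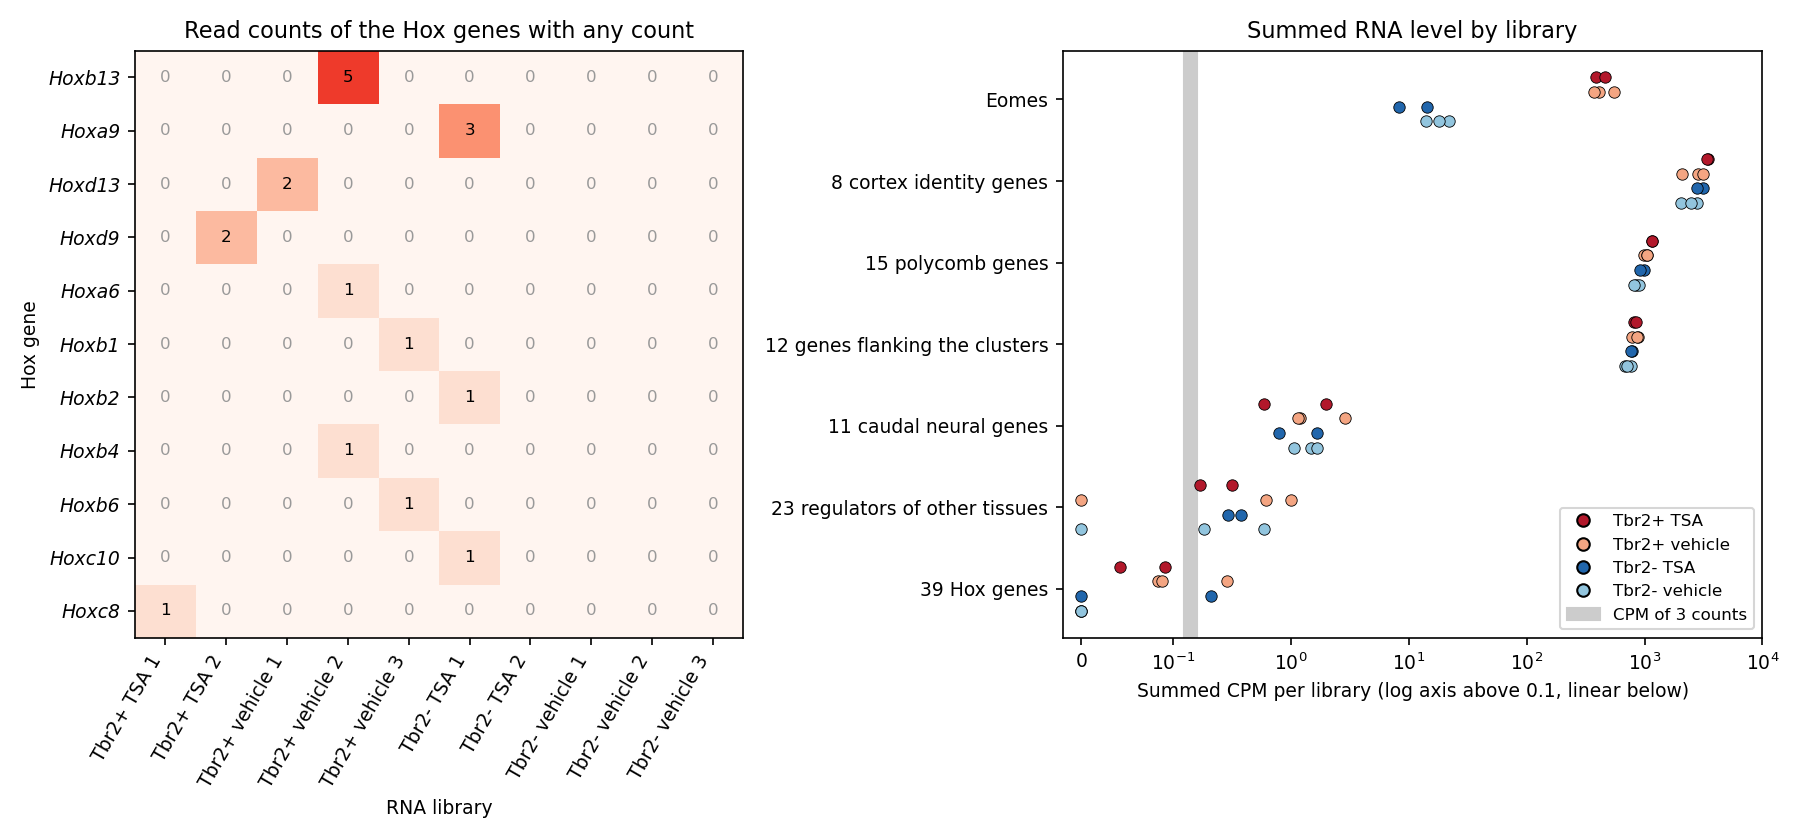
Left, read counts of the 11 Hox genes with any count (rows) in the 10 RNA libraries (columns). Right, summed CPM per library (points, coloured by group; log axis above 0.1 CPM, linear below) for Eomes, 5 gene lists and the 39 Hox genes, with the CPM of 3 counts as a grey band. No row on the left holds counts in more than 1 library, and in the bottom row on the right, the Hox genes, 4 libraries are at 0.

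Such silence was common among genes, though more so among the Hox genes than among protein-coding genes at large. Of 20765 protein-coding genes, 4049 (19.5%) had no read in any library, against 71.8% of Hox genes, and 23.1% had at most 5 reads over all libraries, against all 39 Hox genes. In the list of 16 noncoding RNAs in and beside the clusters, 15 had no read in any library, among them Hotair and Hottip. The exception was Halr1, a noncoding RNA beside the Hoxa cluster, with 27 counts in all. The 23 regulators of other tissues, such as Myod1 of muscle and Gata4 of heart and gut, summed to 0.170 to 0.319 CPM in Tbr2-positive TSA and 0 to 1.01 CPM in Tbr2-positive vehicle libraries, and to 0.293 to 0.376 CPM in Tbr2-negative TSA and 0 to 0.591 CPM in Tbr2-negative vehicle libraries. Of the 23, 15 had no read at all and 4 also stand in another list. The 11 caudal neural genes, markers of the midbrain, hindbrain and spinal cord, where Hox genes or their neighbours in the axis act, summed to 0.594 to 2.0 CPM in Tbr2-positive TSA, 1.14 to 2.86 CPM in Tbr2-positive vehicle, 0.793 to 1.67 CPM in Tbr2-negative TSA and 1.06 to 1.67 CPM in Tbr2-negative vehicle libraries. Of these, Mnx1 of motor neurons, and Tlx3 and Lbx1 of the dorsal spinal cord were at 0 in all libraries. Pou4f1, a sensory and midbrain factor, had 11 and 24 counts in Tbr2-positive TSA and 31, 9 and 8 in Tbr2-positive vehicle libraries, against 0 and 0 in Tbr2-negative TSA and 0, 1 and 0 in Tbr2-negative vehicle libraries. It passed as higher in Tbr2-positive nuclei in vehicle (adjusted p = 0.0377, edgeR), but not with the replicate block (adjusted p = 0.0641, edgeR). That call held in 9 of 15 alternatives of the fit. Slc18a3 of the same list passed the other way in TSA, as lower in Tbr2-positive nuclei. It had 0 and 0 counts in Tbr2-positive TSA against 7 and 38 in Tbr2-negative TSA libraries. Its call held in 5 of 15 alternatives, and not with the replicate block (adjusted p = 0.0863, edgeR). The 8 cortex identity genes, among them Pax6 and Emx1, summed to 2046 to 3460 CPM over all libraries.

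No Hox gene reached the count needed for testing, so none could be called. In edgeR's quasi-likelihood fit of 20078 genes, the share with a Benjamini-Hochberg adjusted p under 0.05 was 0.0% for TSA against vehicle in Tbr2-positive nuclei (3175 genes at an unadjusted p under 0.05, and 1015 called by DESeq2) and 1.18% in Tbr2-negative nuclei (164 or 0.817% up, 72 or 0.359% down; 2001 called by DESeq2, and 0 by edgeR without either TSA library of that fraction). It was 21.4% for Tbr2-positive against Tbr2-negative in vehicle (9.96% higher, 11.5% lower) and 9.32% in TSA (4.19% higher, 5.13% lower). For the difference between both TSA effects it was 0.0% (1103 at an unadjusted p under 0.05, 11 called by DESeq2). When the filter on low counts was dropped, 11 Hox genes entered the edgeR fit of 30599 genes and 0 were called in any of the 5 comparisons, with a smallest adjusted p of 0.357 and a smallest unadjusted p of 0.125, and DESeq2 without the filter called 0 as well. Over all genes, that edgeR fit called 364 (Tbr2-positive) and 944 (Tbr2-negative) for TSA against vehicle. Each of the 11 Hox genes had reads in 1 library only, at most 5, so neither tool could readily have called any of them.

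A simpler rule asked which genes had reads in every TSA library of a fraction and in none of its vehicle libraries. In Tbr2-positive nuclei 33 Hox genes had no read in vehicle and 0 of them had reads in both TSA libraries, against 0.719% of all 21967 genes without a vehicle read. In Tbr2-negative nuclei all 39 Hox genes were without a vehicle read and 0 switched on, against 0.997% of 21568 genes. In the opposite direction, with reads in every vehicle and no TSA library, 0 of 37 Hox genes were lost with TSA in Tbr2-positive nuclei (1.42% of all genes) and 0 of 36 in Tbr2-negative nuclei (1.23%). Between the fractions the same rule also gave 0 Hox genes in either direction, in vehicle (0.779% of all genes with reads in Tbr2-positive only, 0.81% in Tbr2-negative only) and in TSA (1.67% and 2.66%). As no Hox gene had a read in more than 1 library, none could meet this rule in any comparison. The Hox counts of 0 were fixed by that and are no result about the Hox genes. With shares this low over all genes, a count of 0 among 33 to 39 genes is also near the background.

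The genes that work with, induce or repress Hox genes were mostly above the filter. Over all 13 lists, 93 of 147 distinct genes were tested and 0 passed in edgeR for TSA in either fraction. An unadjusted p under 0.05 in edgeR was reached by 14 (Tbr2-positive) and 13 (Tbr2-negative). Over all 20078 genes tested it was reached by 3175 (Tbr2-positive) and 4037 (Tbr2-negative). DESeq2 called 2 up and 0 down in Tbr2-positive nuclei and 5 up and 4 down in Tbr2-negative nuclei. In neither fraction was that share of the lists above the share of all genes that DESeq2 called, from the counts given above. Among the 9 cofactors, homeodomain proteins of the Pbx, Meis and Pknox families that bind DNA with Hox proteins, the median log2 fold change with TSA was 0.07 in Tbr2-positive nuclei and 0.32 in Tbr2-negative ones, beside -0.04 (Tbr2-positive) and -0.08 (Tbr2-negative) over all genes tested. The 15 Polycomb genes, whose products write and read the repressive marks of the clusters, were all tested, with medians of 0.18 (Tbr2-positive) and 0.02 (Tbr2-negative). The 10 Trithorax genes, which counter Polycomb at Hox genes, had medians of -0.11 (Tbr2-positive) and -0.13 (Tbr2-negative). Of the 15 inducers, which set Hox expression through retinoic acid, Cdx, Fgf and Wnt signals, 9 were tested, with medians of 0.24 (Tbr2-positive) and 0.56 (Tbr2-negative), and Cdx1, Cdx2 and the retinoic acid synthesising enzyme Aldh1a2 had no read in any library. The 8 tested genes that flank the clusters had medians of -0.09 (Tbr2-positive) and 0.38 (Tbr2-negative). Some genes of this flanking list lie over 100 kb from a cluster, outside the flanks measured for H3K9ac below.

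Some genes of these lists differed between the sorted fractions, where the shares of all genes given above are the background. In vehicle, 2 of 9 cofactors passed for Tbr2-positive against Tbr2-negative, 1 higher and 1 lower. Meis2, the higher one, averaged 511 ± 93.6 CPM in Tbr2-positive and 315 ± 31.6 CPM in Tbr2-negative nuclei (SD, n = 3 each; adjusted p = 0.0162, edgeR). In TSA 1 of 9 passed, Pbx3, at 35.5 ± 5.32 CPM in Tbr2-positive and 95 ± 5.82 CPM in Tbr2-negative nuclei (SD, n = 2 each; adjusted p = 0.00833, edgeR). Of 16 alternatives, Meis2 kept its call in 14 but not without replicate 3 of either vehicle group, and Pbx3 kept it in 14 but not without replicate 1 of either TSA group. Of the 9 tested inducers 3 were lower and 0 higher in Tbr2-positive nuclei in each condition, by edgeR. Given as Tbr2-positive against Tbr2-negative, those in vehicle were the retinoic acid receptors Rarb (8.52 ± 2.71 against 16.2 ± 1.71 CPM) and Rarg (1.82 ± 0.756 against 4.71 ± 0.275 CPM) and the retinoic acid degrading enzyme Cyp26b1 (1.39 ± 0.382 against 5.13 ± 0.354 CPM). In TSA they included Rarb (7.39 ± 1.24 against 24.5 ± 4.10 CPM) and the receptor Rara (2.59 ± 1.73 against 13.5 ± 0.549 CPM). The call of Rarg held in 6 of 16 alternatives, not with the replicate block (adjusted p = 0.0636, edgeR), that of Rarb in vehicle in 9, and those of Cyp26b1, Rara and Rarb in TSA in 14, 13 and 14.

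Among the Polycomb genes 3 were higher and 2 lower in Tbr2-positive nuclei in vehicle, and 4 higher and 1 lower in TSA. Ezh2, the methyltransferase of Polycomb complex PRC2, averaged 229 ± 11.7 CPM in Tbr2-positive and 138 ± 16.0 CPM in Tbr2-negative vehicle libraries (SD, n = 3 each; log2 fold change 0.73 ± 0.13 SE, adjusted p = 0.00146, edgeR). Eed, its partner in that complex, averaged 74.9 ± 8.33 CPM in Tbr2-positive and 48.8 ± 4.18 CPM in Tbr2-negative vehicle libraries (adjusted p = 0.00807, edgeR). Ezh2 and Eed kept their calls in all 16 alternatives in vehicle. In TSA, Ezh2 kept its call in 15 and Eed in 5, where Eed (adjusted p = 0.0627, edgeR) and Jarid2 (adjusted p = 0.0587, edgeR) lost theirs with the replicate block. The median over the 15 genes was 0.04 in vehicle and 0.26 in TSA, beside -0.05 and -0.02 over all genes. Of the Trithorax genes Kdm6a was higher and Kmt2b lower in vehicle, and 0 of 10 passed in TSA. Among the flanking genes 1 of 8 passed, in vehicle. This was Calcoco1, over 100 kb from the Hoxc cluster, at 211 ± 43.2 CPM in Tbr2-positive and 104 ± 10.3 CPM in Tbr2-negative libraries (SD, n = 3 each, adjusted p = 0.00184, edgeR). Among the cortex identity genes 4 were higher and 1 lower in vehicle, led by Emx1, a dorsal forebrain factor, at 67.5 ± 19.9 CPM in Tbr2-positive and 15.2 ± 2.48 CPM in Tbr2-negative libraries (SD, n = 3 each; adjusted p = 3.54e-05, edgeR), and 4 were higher in TSA. Emx1, Lhx2 and Pax6 kept their calls in all 16 alternatives under both treatments, as did Calcoco1 in vehicle.

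H3K9ac in the clusters was sparse. The 15 libraries held 2 to 13 peaks each in the 4 clusters, 132 in total, and these covered 0.0614% to 0.824% of the 492 kb, against 0.471% to 1.34% of the 100 kb on each side of every cluster. Tbr2-positive TSA libraries had 0.276%, 0.129%, 0.0614% and 0.130% of the clusters under a peak (mean 0.149% ± 0.0903, SD, n = 4), and Tbr2-positive vehicle libraries 0.368%, 0.293% and 0.410% (0.357% ± 0.0594, n = 3). Tbr2-negative TSA libraries had 0.652%, 0.824%, 0.800% and 0.486% (0.690% ± 0.156, n = 4), and Tbr2-negative vehicle libraries 0.631%, 0.610%, 0.696% and 0.670% (0.652% ± 0.0384, n = 4). All Tbr2-negative libraries were above all Tbr2-positive ones. No Hox peak was over 601 bases wide. In Tbr2-positive libraries the median width of Hox peaks was 151 to 223 bases, below that of all peaks (218 to 419) in 7 of 7 libraries, while in Tbr2-negative libraries it was 157 to 363 bases, above that of all peaks (225 to 320) in 5 of 8. The median -log10 q of Hox peaks, the caller's own significance score, stood at the 20.3rd to 42.9th percentile of all peaks of the same library in Tbr2-positive libraries and at the 36.6th to 61.5th in Tbr2-negative ones, where 4 of 8 were above the middle.

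With TSA, Tbr2-positive libraries had less of the clusters under peaks, with a difference of -0.208 percentage points in the mean, and the ranges of TSA and vehicle libraries did not overlap. The number of peaks over the whole genome moved with this: 31823 to 40053 in Tbr2-positive TSA and 61487 to 82164 in Tbr2-positive vehicle libraries. Per 10000 peaks, the Hox clusters held 0.600 to 1.76 peaks in Tbr2-positive TSA and 1.10 to 1.57 in Tbr2-positive vehicle libraries, which overlapped. When only the 31823 strongest peaks of each library were kept, the covered share was 0.233%, 0.0902%, 0.0614% and 0.130% in Tbr2-positive TSA and 0.0902%, 0.0961% and 0.0534% in Tbr2-positive vehicle libraries. The difference then turned to 0.0489 percentage points higher with TSA, with overlapping ranges. Within lane 1, as the deposited files number the lanes, the shares were 0.276% and 0.129% in TSA and 0.368% in vehicle, and within lane 2 they were 0.0614% in TSA and 0.293% and 0.410% in vehicle. Lane 3 held no Tbr2-positive vehicle library.

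In Tbr2-negative nuclei the covered share with TSA was 0.0386 percentage points higher than in vehicle, and the ranges overlapped. Within lane 1 it was 0.652% in TSA and 0.631% and 0.610% in vehicle, and within lane 2 it was 0.824% and 0.800% in TSA and 0.696% in vehicle. Within lane 3 the order turned, with 0.486% in TSA and 0.670% in vehicle. Peaks per library were 47835 to 78929 in Tbr2-negative TSA and 56403 to 78773 in Tbr2-negative vehicle, and per 10000 peaks the Hox clusters held 1.65 to 1.93 in TSA and 1.59 to 1.81 in vehicle. Whether the TSA difference itself differed between the fractions was not tested.

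**Figure D2:**
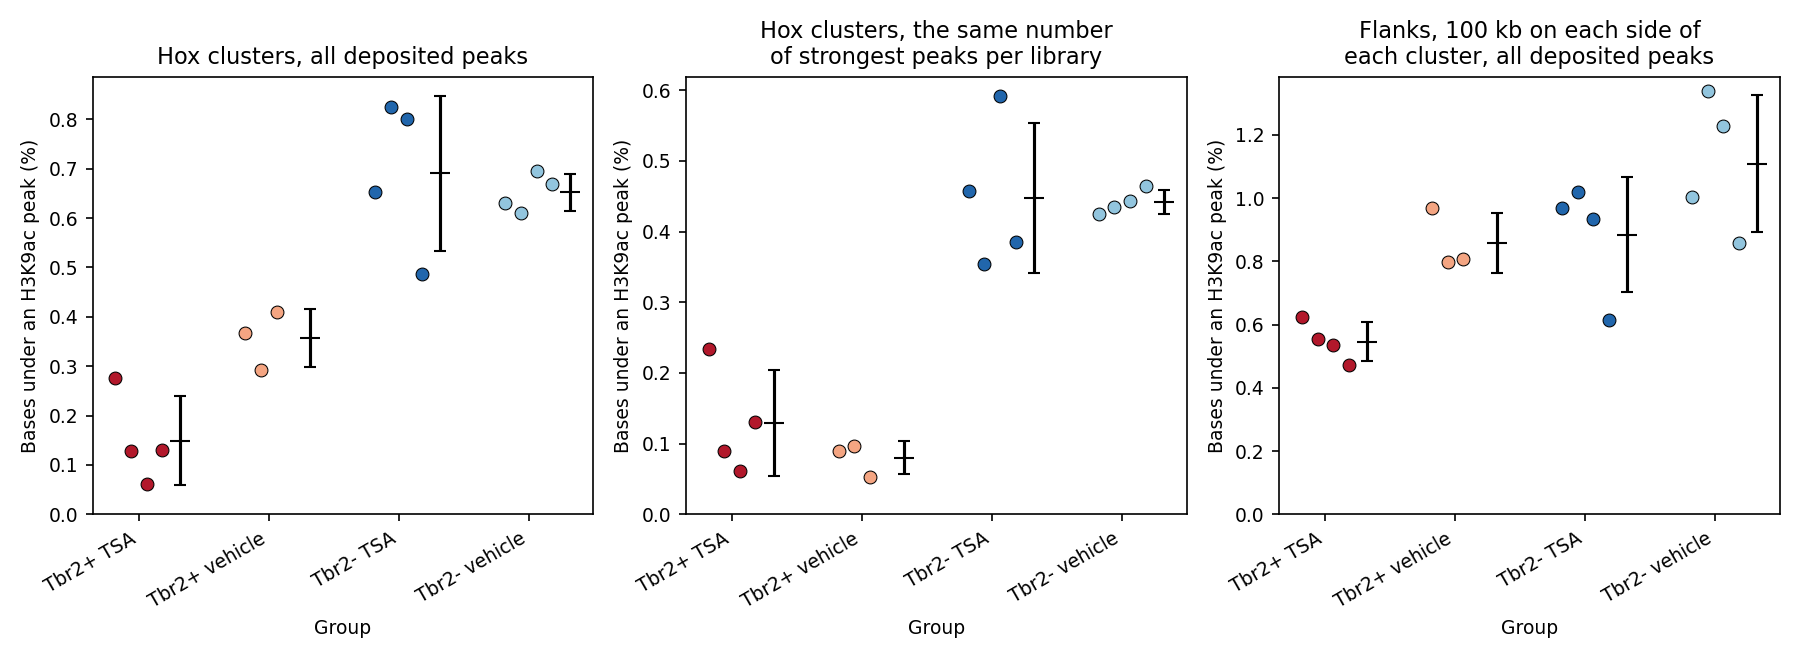
Share of bases under an H3K9ac peak in each library (points), with the group mean and SD (bar), for the 4 Hox clusters with all deposited peaks, for the clusters with the 31823 strongest peaks of each library, and for 100 kb on each side of each cluster. The Tbr2-negative libraries lie above the Tbr2-positive ones in both panels of the clusters, while TSA and vehicle of the Tbr2-positive nuclei separate with all peaks, in clusters and flanks, and overlap with the strongest peaks alone.

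The clusters differed in how much they carried. Hoxc held the most covered bases in 7 of 8 Tbr2-negative libraries (in vehicle library 1 Hoxd held 1002 and Hoxc 921), with 856 to 2292 with TSA and 921 to 1600 in vehicle, against 0 to 423 in Tbr2-positive TSA and 383 to 875 in Tbr2-positive vehicle libraries. Hoxa held 152 to 642 in Tbr2-positive TSA, 229 to 791 in Tbr2-positive vehicle, 548 to 1079 in Tbr2-negative TSA and 680 to 1066 in Tbr2-negative vehicle libraries. Hoxd held 0 to 208 bases in Tbr2-positive TSA, 334 to 804 in Tbr2-positive vehicle, 469 to 634 in Tbr2-negative TSA and 552 to 1002 in Tbr2-negative vehicle libraries. Hoxb, the longest cluster at 174 kb, held 0 to 148 bases in Tbr2-positive TSA, 0 to 302 in Tbr2-positive vehicle, 221 to 794 in Tbr2-negative TSA and 420 to 484 in Tbr2-negative vehicle libraries. Of the Tbr2-positive TSA libraries, 2 of 4 had no peak in Hoxb and 2 of 4 none in Hoxd.

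**Figure D3:**
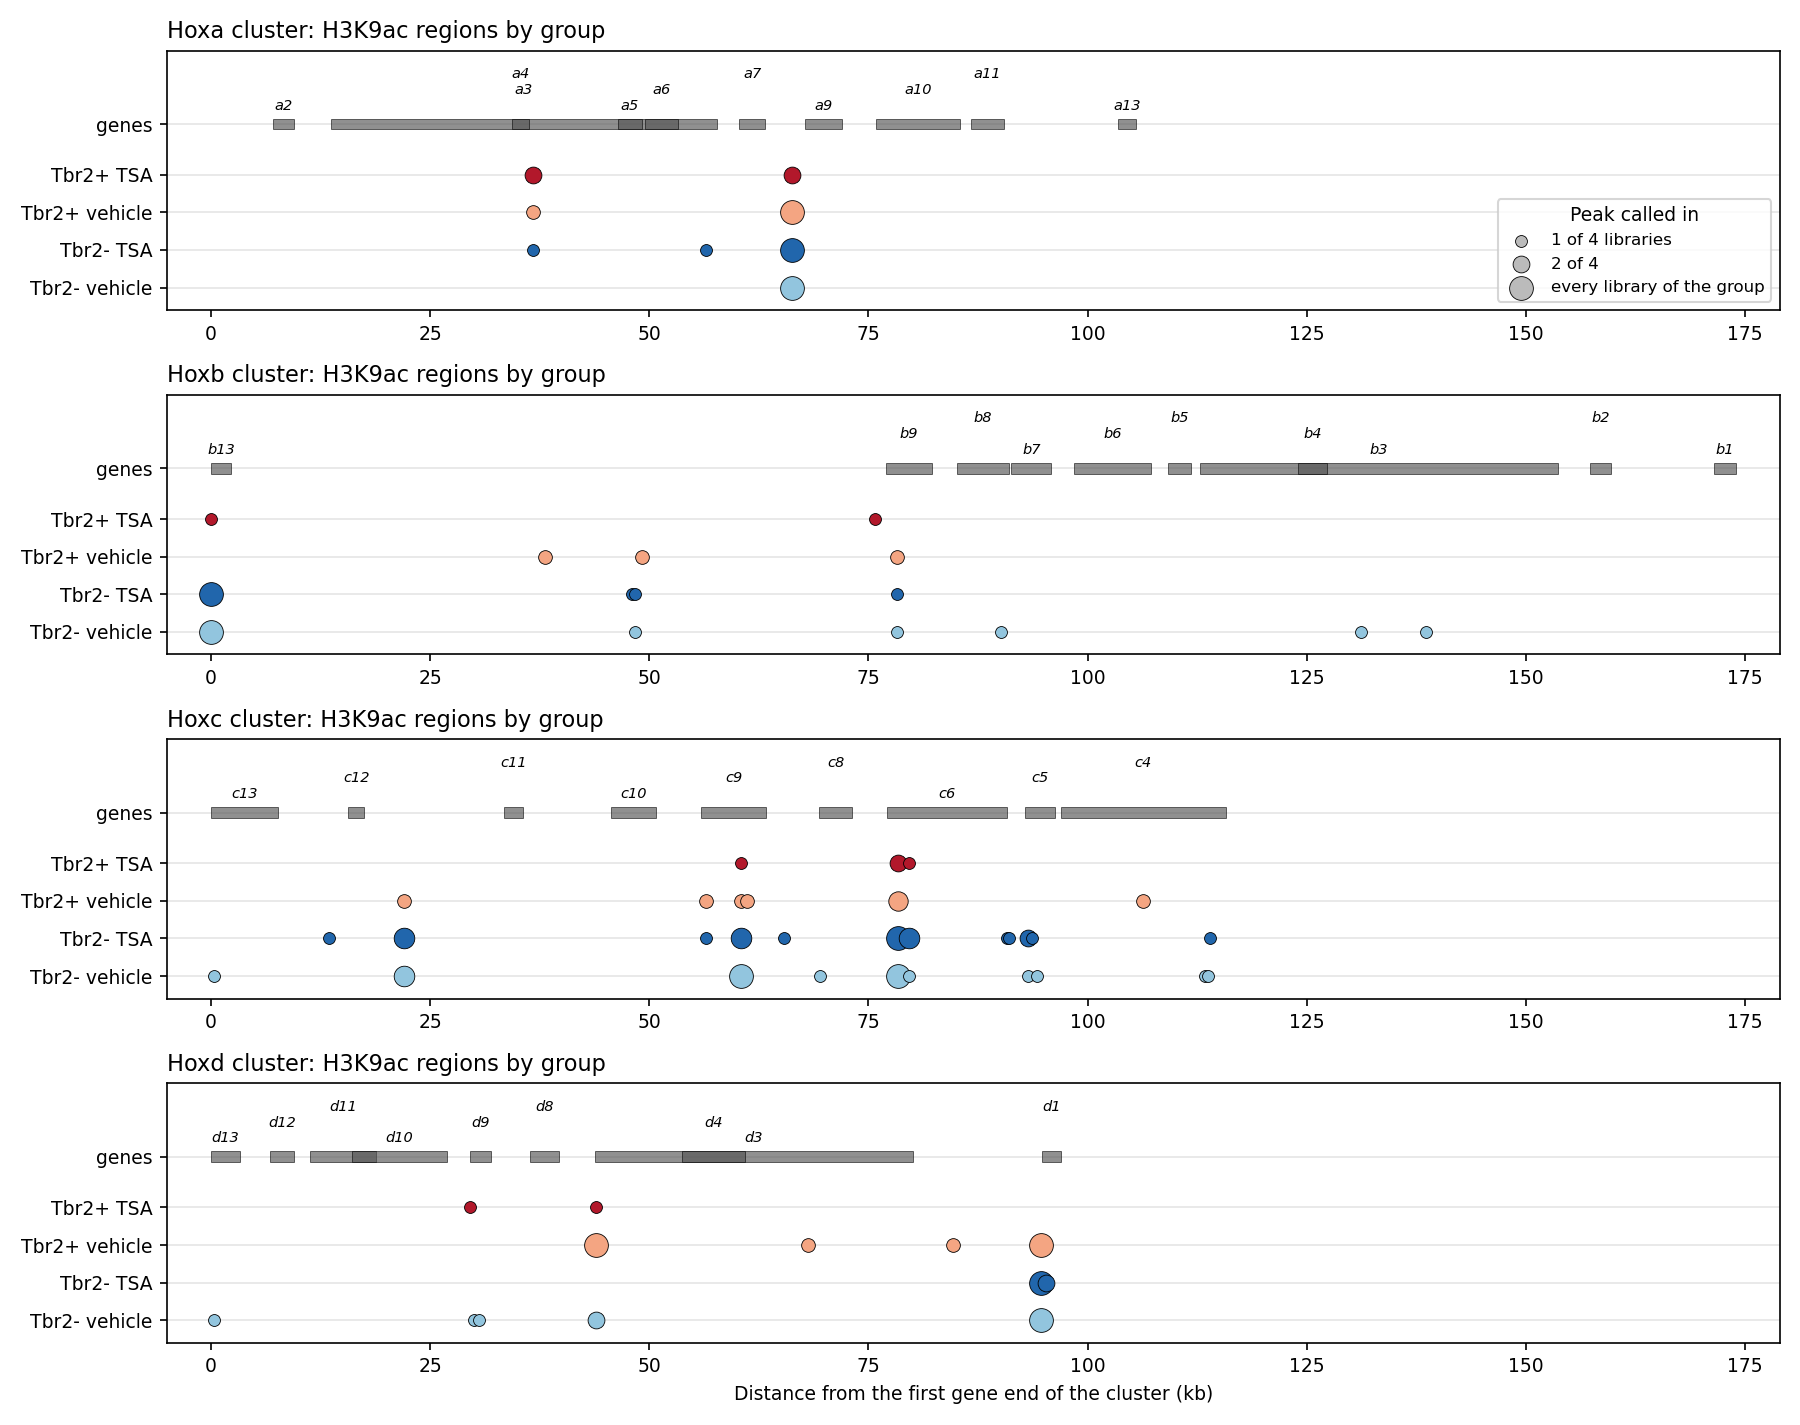
H3K9ac regions (circles) along the 4 Hox clusters in kb from the first gene end, one line per group, with gene spans as grey bars above (labels drop the Hox prefix). Circle area gives the share of the group's libraries with a peak there; large circles recur between a7 and a9, and at b13, c9, c6, d3 and d1, and most other circles are single libraries.

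The peaks merged into 42 regions, 4 in Hoxa, 10 in Hoxb, 19 in Hoxc and 9 in Hoxd. Of these, 27 were called in 1 library only, 0 in all 15, and 12 in 50% or more of the libraries of some group (recurrent regions). The widest was 866 bases. All 8 Tbr2-negative libraries shared 5 regions, among them those at Hoxb13 (chr11:96194145-96194614), inside Hoxc6 (chr15:102999197-102999808), at the start of Hoxd1 (chr2:74762508-74763316), and between Hoxa7 and Hoxa9 (chr6:52221364-52221892). Coordinates are those of mm10, the build of the peak files.

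The Hoxd1 region lay over the promoter printed above and overlapped the antisense noncoding gene Haglr. It was called in 0 of 4 Tbr2-positive TSA and 3 of 3 Tbr2-positive vehicle libraries. In Tbr2-negative nuclei it was called in 4 of 4 TSA and 4 of 4 vehicle libraries. Its -log10 q was 1.88 to 4.91 in Tbr2-positive vehicle, 4.61 to 12.5 in Tbr2-negative TSA and 5.57 to 13 in Tbr2-negative vehicle libraries. It was the one Hox region with a peak in every vehicle and no TSA library of the Tbr2-positive nuclei, 1 of 20 Hox regions tested, where 2.36% of all 109360 regions met that rule, and it no longer met it at q below 0.01, with equal numbers of peaks or with 50% overlap. The Hoxd3 region (chr2:74711807-74712434), which also overlaps the noncoding Hoxd3os1, was called in 1 of 4 Tbr2-positive TSA and 3 of 3 Tbr2-positive vehicle libraries, and in 0 of 4 Tbr2-negative TSA and 2 of 4 Tbr2-negative vehicle libraries. The region at Hoxb13, a prostate and tail gene, was called in 1 of 4 Tbr2-positive TSA and 0 of 3 Tbr2-positive vehicle libraries, against 4 of 4 in Tbr2-negative TSA and 4 of 4 in Tbr2-negative vehicle. The Hoxc6 region was called in 2 of 4 Tbr2-positive TSA, 2 of 3 Tbr2-positive vehicle, 4 of 4 Tbr2-negative TSA and 4 of 4 Tbr2-negative vehicle libraries. Where called, its -log10 q was 3.59 to 4.51 in Tbr2-positive TSA and 2.69 to 5.23 in Tbr2-positive vehicle, against 9.24 to 19.1 in Tbr2-negative TSA and 8.12 to 20.8 in Tbr2-negative vehicle libraries.

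In the Hoxa cluster, the region between Hoxa7 and Hoxa9, inside no annotated gene, was called in 2 of 4 Tbr2-positive TSA and 3 of 3 Tbr2-positive vehicle, and in 4 of 4 libraries of both Tbr2-negative groups. A Hoxa region inside the Hoxa3 span was called in 2 of 4 Tbr2-positive TSA, 1 of 3 Tbr2-positive vehicle, 1 of 4 Tbr2-negative TSA and 0 of 4 Tbr2-negative vehicle libraries. The Hoxc9 region (chr15:102981117-102981982) was called in 1 of 4 Tbr2-positive TSA, 1 of 3 Tbr2-positive vehicle, 3 of 4 Tbr2-negative TSA and 4 of 4 Tbr2-negative vehicle libraries. One between Hoxc12 and Hoxc11 (chr15:102942911-102943301) was called in 0 of 4 Tbr2-positive TSA, 1 of 3 Tbr2-positive vehicle, and 3 of 4 libraries of both Tbr2-negative groups. A further 3 recurrent regions lay in Hoxc6, Hoxc5 and Hoxd1 and reached at most 3 libraries of a group. The one in Hoxc6 was called in 1 of 4 Tbr2-positive TSA and 0 of 3 Tbr2-positive vehicle libraries. It was called in 3 of 4 Tbr2-negative TSA and 1 of 4 Tbr2-negative vehicle libraries. The one in Hoxc5 was called in 2 of 4 Tbr2-negative TSA and 1 of 4 Tbr2-negative vehicle libraries and in no Tbr2-positive one. This Hoxd1 region was called in 2 of 4 Tbr2-negative TSA libraries and in no other group.

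**Figure D4:**
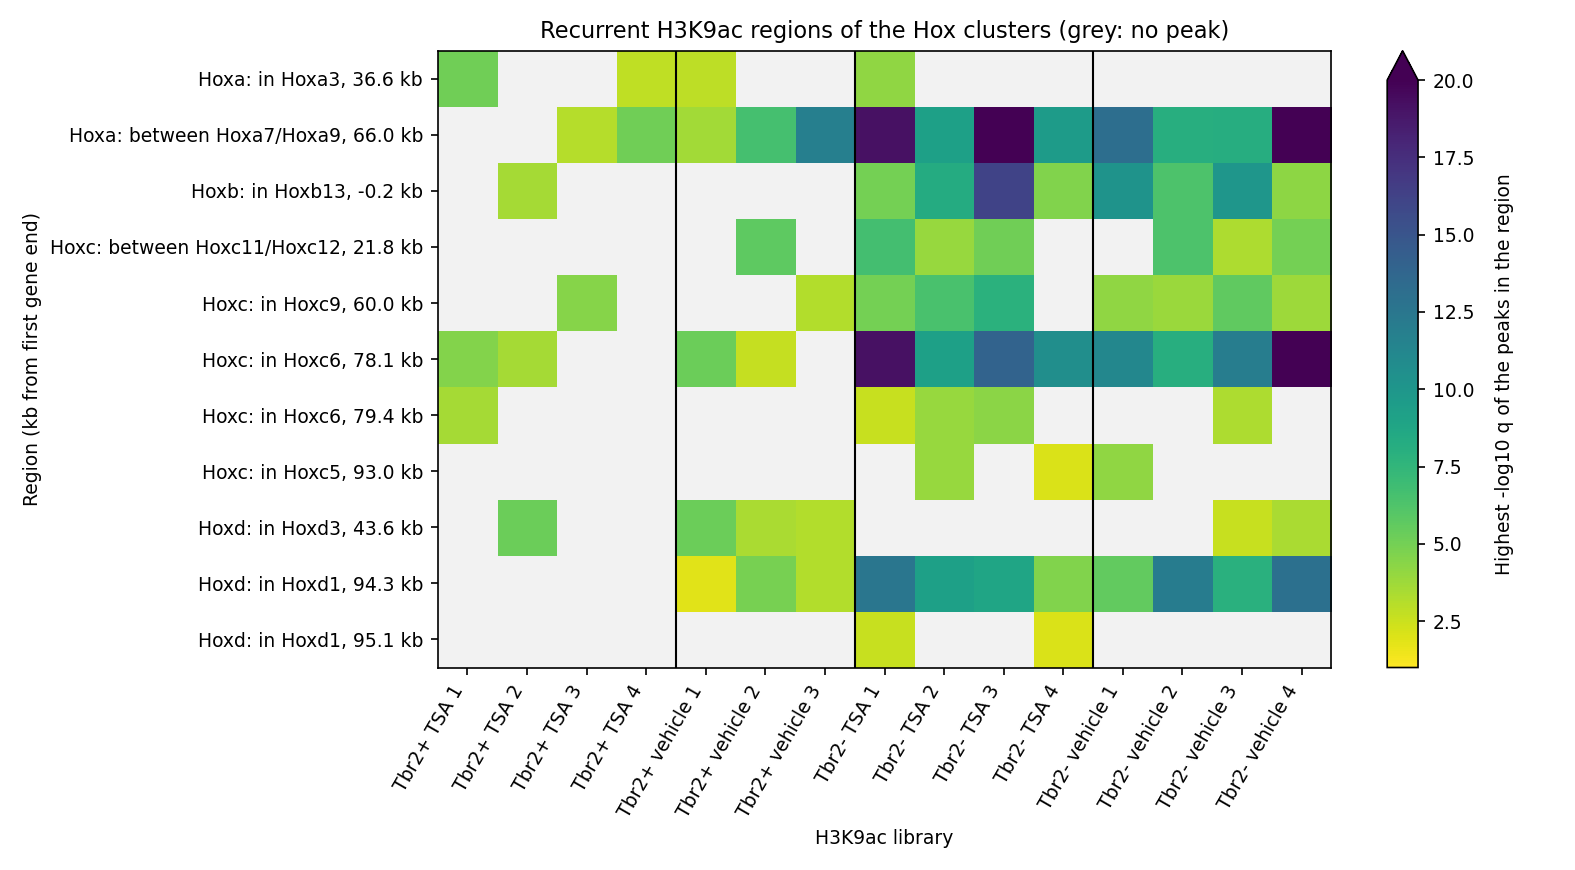
Recurrent regions (11 rows, with their distance from the first gene end) in the 15 H3K9ac libraries (columns), coloured by the highest -log10 q of the peaks there; grey marks no peak. The rows of Hoxa7/Hoxa9, Hoxc6, Hoxb13 and Hoxd1 are filled across all 8 Tbr2-negative libraries, and the left columns, Tbr2-positive TSA, are the emptiest.

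No Hox region was gained with TSA, in the sense of a peak in every TSA and in no vehicle library of a fraction. In Tbr2-positive nuclei the count was 0 of 20, where 0.00457% of all regions were gained. In Tbr2-negative nuclei 0 of 34 Hox regions were gained and 0 lost, where 0.0471% and 0.101% of 167608 regions were. Between the fractions, 0 of 31 Hox regions were gained and 1 lost in Tbr2-positive vehicle against Tbr2-negative vehicle libraries (the one at Hoxb13), where 0.566% and 0.483% of all regions were, and in TSA 0 of 25 were gained and 1 lost (the one at Hoxd1), where 0.0448% and 1.67% were. Such gains and losses were rare across the genome, and a Hox count of 0 is near that background.

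The genes themselves were compared by the bases under a peak within their span and 1 kb on either side. A peak was found in 17 of the 39 gene windows in any library, and 22 had none in any of the 15. Windows overlap in 13 pairs, so one peak can count for neighbours. A share of 50% or more meant at least 2 of 3 libraries in Tbr2-positive vehicle and 2 of 4 in the other groups. Windows with a peak in 50% or more of the libraries numbered 4 of 39 in Tbr2-positive TSA (among them Hoxa3, Hoxa4 and Hoxc6), 4 in Tbr2-positive vehicle (among them Hoxc6, Hoxd1 and Hoxd3), 7 in Tbr2-negative TSA (among them Hoxa3, Hoxb13, Hoxc9, Hoxc6, Hoxc5 and Hoxd1) and 10 in Tbr2-negative vehicle (among them Hoxb13, Hoxb3, Hoxc9, Hoxc6, Hoxc5, Hoxc4, Hoxd9, Hoxd3 and Hoxd1). Both head-end and tail-end genes were among them: Hoxc6, a trunk gene, had a peak in 12 libraries, Hoxd1, at the head end of its cluster, in 11, and Hoxb13 and Hoxc9 in 9 each. Hoxd3 had a peak in 6 libraries, Hoxa3 in 5, Hoxa4, Hoxc4 and Hoxc5 in 4 each, Hoxd9 in 3 and Hoxb3 in 2. Another 5, Hoxb9, Hoxb8, Hoxc13, Hoxc8 and Hoxd13, had one in 1 to 3 libraries.

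With TSA in Tbr2-positive nuclei, 0 of 11 Hox windows tested were higher and 2 were lower without overlap of ranges, beside 0.067% and 45.7% of all 25392 gene windows. Hoxd1 had 0 covered bases in all 4 TSA libraries against 138, 316 and 161 in vehicle. Hoxd3 had 0, 170, 0 and 0 in TSA against 196, 316 and 184 in vehicle. At 2 of 11, the share lower was under that of all windows. With equal numbers of peaks per library neither call held.

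With TSA in Tbr2-negative nuclei, 1 of 17 Hox windows was higher and 0 lower, beside 0.707% and 2.78% of 26722 windows. The window was that of Hoxd1, with 492, 542, 469 and 634 covered bases in TSA against 456, 455, 363 and 430 in vehicle. The gap between the ranges was smaller than the spread within either group. Hoxd1 had a peak in every library of both groups, and the call did not hold with equal numbers of peaks, at q below 1e-5 or without the 1 kb margin. For windows that changed from no peak in any vehicle library to one in every TSA library, the Hox count was 0 of 30 in Tbr2-positive nuclei (0.00404% of all) and 0 of 24 in Tbr2-negative nuclei (0.0408%). The opposite change was met by 1 of 31 in Tbr2-positive nuclei, Hoxd1 (2.75% of all), and by 0 of 28 in Tbr2-negative nuclei (0.114%).

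The sorted fractions differed in the clusters under both treatments. The covered share of the clusters in Tbr2-positive minus Tbr2-negative libraries was -0.295 percentage points in vehicle and -0.541 in TSA, both without overlap of ranges. With equal numbers of peaks per library it was -0.362 in vehicle and -0.318 in TSA: 0.0534% to 0.0961% in Tbr2-positive vehicle against 0.425% to 0.465% in Tbr2-negative vehicle libraries, and 0.0614% to 0.233% in Tbr2-positive TSA against 0.354% to 0.592% in Tbr2-negative TSA libraries. Over the whole genome, peaks covered 30.1 to 33.6 Mb in Tbr2-positive vehicle and 30.9 to 35.2 Mb in Tbr2-negative vehicle libraries, and 18.6 to 21.0 Mb in Tbr2-positive TSA and 25.8 to 33.0 Mb in Tbr2-negative TSA libraries. In each lane that held both fractions, every Tbr2-positive library was below every Tbr2-negative one of the same treatment. The difference of lane means was -0.751 in lane 2 and -0.355 in lane 3 for TSA. In lane 1 the TSA means were 0.202% in Tbr2-positive and 0.652% in Tbr2-negative libraries. In vehicle, Tbr2-positive and Tbr2-negative means were 0.368% and 0.621% in lane 1, and 0.351% and 0.696% in lane 2. The same libraries enter both this and the TSA comparisons. In vehicle 3 of 17 Hox windows were lower in Tbr2-positive nuclei and 0 higher, beside 13.2% and 5.41% of 27234 windows, and in TSA 3 of 13 were lower and 0 higher, beside 36.4% and 0.487% of 24824. They were Hoxb13, Hoxc6 and Hoxd1 in both. Hoxb13 had 0 covered bases in all Tbr2-positive vehicle libraries against 416, 321, 403 and 213 in Tbr2-negative vehicle libraries, and Hoxc6 had 248, 164 and 0 in Tbr2-positive vehicle against 452, 434, 732 and 540 in Tbr2-negative vehicle libraries. In vehicle the share of Hox windows that were lower was close to that of all windows, and in TSA it was below it. By presence alone, with a peak in every Tbr2-negative and no Tbr2-positive library, Hoxb13 was the 1 of 30 Hox windows in vehicle (0.505% of all) and Hoxd1 the 1 of 31 in TSA (1.86%). The opposite was met by 0 of 24 in vehicle (0.502%) and 0 of 28 in TSA (0.0196%).

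RNA markers of other cell types also differed between the fractions, in another set of libraries. The 8 microglia markers summed to 14.5 to 20.4 CPM in Tbr2-positive TSA against 53.6 to 70.3 CPM in Tbr2-negative TSA libraries, and to 15.7 to 26.7 CPM in Tbr2-positive vehicle against 33.5 to 58.1 CPM in Tbr2-negative vehicle libraries. All 8 were detected in each group. Of them, 2 passed as lower in Tbr2-positive nuclei in vehicle (Cx3cr1 and Aif1), beside 11.5% of all genes tested. In TSA 4 did (Cx3cr1, C1qa, C1qc and Csf1r), beside 5.13% of all genes tested. In TSA, Cx3cr1 kept its call in 16 of 16 alternatives, C1qa in 6, C1qc in 5 and Csf1r in 6. With the replicate block C1qc (adjusted p = 0.0680, edgeR) and Csf1r (adjusted p = 0.0893, edgeR) lost theirs. The 8 mural and meningeal markers summed to 15.5 to 18.7 CPM in Tbr2-positive TSA against 21.5 to 30.4 CPM in Tbr2-negative TSA libraries, and to 13.8 to 19.2 CPM in Tbr2-positive vehicle against 25.2 to 43.4 CPM in Tbr2-negative vehicle libraries. Dcn, a fibroblast proteoglycan, was the 1 of these 8 that passed, as lower in vehicle, which is near the 11.5% of all genes. The 8 endothelial markers, of which 0 passed, summed to 18 to 20.8 CPM in Tbr2-positive TSA against 16.1 to 21.7 CPM in Tbr2-negative TSA libraries, and to 16.6 to 46.0 CPM in Tbr2-positive vehicle against 20.7 to 28.3 CPM in Tbr2-negative vehicle libraries. The 8 erythroid genes, of which 0 passed, summed to 346 to 523 CPM in Tbr2-positive TSA against 387 to 675 CPM in Tbr2-negative TSA libraries, and to 283 to 456 CPM in Tbr2-positive vehicle against 483 to 704 CPM in Tbr2-negative vehicle libraries. The part of such cells in the H3K9ac difference was not tested.

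Set among other genes, the Hox windows were nearer to those of silent genes at large than to those of the genes that flank the clusters. A peak in 50% or more of the libraries was found for 10.3% of Hox windows in Tbr2-positive TSA, 10.3% in Tbr2-positive vehicle, 17.9% in Tbr2-negative TSA and 25.6% in Tbr2-negative vehicle. The other 4756 protein-coding genes with at most 5 RNA counts had one in 6.22% of windows in Tbr2-positive TSA, 13.9% in Tbr2-positive vehicle, 12.7% in Tbr2-negative TSA and 14.9% in Tbr2-negative vehicle. The 14380 that passed the RNA filter had one in 90.6%, 94.7%, 94.7% and 95.3% of windows of these 4 groups. Windows differ in length, with medians of 5737 bases for Hox, 6421.5 for the other silent genes, 26873 for the genes that passed and 47042.5 for the flanking genes. The caudal neural genes, with few reads and a median window of 6730 bases, carried a peak more often than Hox genes in each group. It was found in 5 of 11 windows in Tbr2-positive TSA, 8 in Tbr2-positive vehicle, 8 in Tbr2-negative TSA and 9 in Tbr2-negative vehicle. The regulators of other tissues carried a peak in 2 of 23 windows in Tbr2-positive TSA, 8 in Tbr2-positive vehicle, 14 in Tbr2-negative TSA and 13 in Tbr2-negative vehicle. Picked from these after their values were seen, Tbx5, a heart and forelimb factor, had a peak in 1 of 4 Tbr2-positive TSA and 3 of 3 Tbr2-positive vehicle libraries and in all 8 Tbr2-negative ones, while it had no read in any RNA library. Of the 12 flanking genes, 10 carried a peak in every group, and only Evx1 and Evx2, homeobox genes next to Hoxa13 and Hoxd13, did not. Only 8 of the 12 passed the RNA filter, so the 10 with a peak include genes with few reads. The cortex identity genes had peaks in 8 of 8 windows in every group, over 59.7% ± 1.01 of their window bases in Tbr2-positive TSA and 68.5% ± 0.898 in Tbr2-positive vehicle, and 51.5% ± 4.71 in Tbr2-negative TSA and 55.6% ± 1.41 in Tbr2-negative vehicle (SD over 4, 3, 4 and 4 libraries). Hox windows were covered over 0.192% ± 0.150 of their bases in Tbr2-positive TSA, 0.331% ± 0.127 in Tbr2-positive vehicle, 0.767% ± 0.146 in Tbr2-negative TSA and 0.713% ± 0.0485 in Tbr2-negative vehicle libraries.

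**Figure D5:**
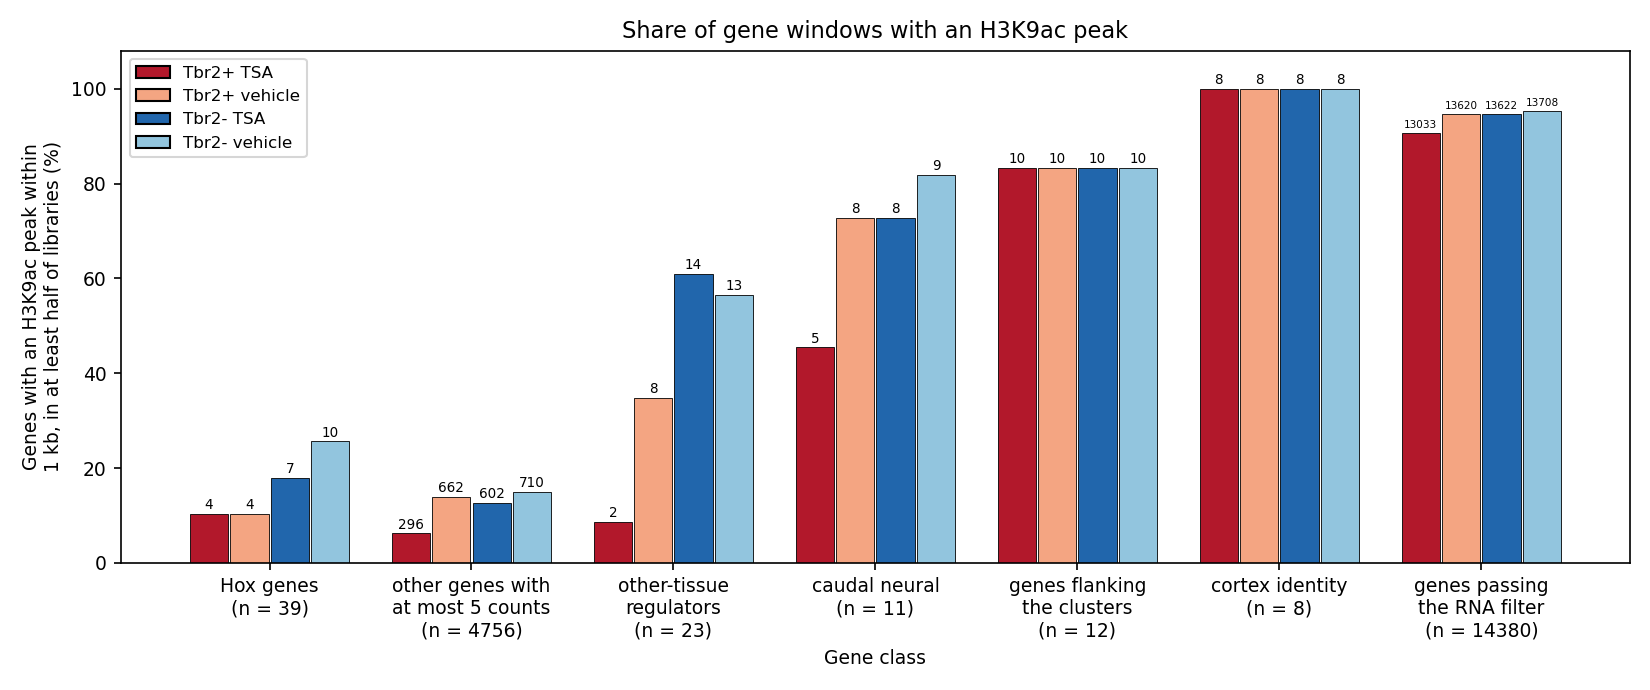
Percentage of genes with an H3K9ac peak in their span or within 1 kb in 50% or more of the group's libraries (bars, one per group; the number of genes stands above each bar), for Hox genes and 6 other gene classes. Hox genes (4, 4, 7 and 10 of 39) lie near other genes with at most 5 counts and far under the genes that flank the clusters (10 of 12 in each group).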

How the data were processed

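RNA-seq gene counts of 10 libraries and H3K9ac ChIP-seq peak lists of 15 libraries were used as deposited; the 4 input libraries are not analysed here. Whole-number counts per Ensembl gene were deposited by the authors, 1 file per library, from TruSeq RNA v2 libraries per the labels' protocols. That kit marks no strand, so reads of overlapping genes (10 Hox genes overlap another Hox gene) cannot be assigned with certainty. No source used here gives the aligner, counter or annotation; SAMtools and mm10 are named in the submitters' processing notes. Peaks were called per library with MACS2 2.1.0.20140616 at q below 0.1 against 1 input per group, per the file headers. The deposited lists give pileup (signal), -log10 p, fold enrichment (ratio) and -log10 q; position and -log10 q were used, and pileup and fold were not compared across libraries.

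Counts were tested in edgeR 4.0.16 (R 4.3.3; TMM scaling, filterByExpr by group, quasi-likelihood test in a model of 4 group means over the 10 libraries, Benjamini-Hochberg adjustment over 20078 genes, threshold 0.05). DESeq2 1.42.0, RLE scaling, no filter, the replicate number as a block and leaving out each library were alternatives. The block joined all libraries of the same number, across treatments as well as fractions. Same-numbered TSA and vehicle libraries did not correlate positively (values below). The block is therefore no clean test of pairing between the fractions, and the main fit held no term for pairing. The fit was tested on simulated data. No test was run on peaks: exact permutation over libraries allows no p below 0.0286 (4 against 4) or 0.0571 (3 against 4), so groups were called apart where their ranges did not overlap, and the share of all gene windows or regions so called is given beside each count. Regions are unions of overlapping peaks of all libraries, and a gene window is the RefSeq GRCm38.p6 span plus 1 kb on each side; all 39 Hox symbols matched. Alternatives were q below 0.01 or 1e-5, equal numbers of peaks, no margin or 5 kb, overlap of 50% or more, and single lanes.

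Named were all Hox genes with a count or with a peak in 50% or more of the libraries of a group, and of other lists up to 3 genes that passed with the smallest adjusted p, with exceptions stated. Some genes, and 1 region in the maps, are not reported here by name, but are included in all counts, sums and tests. The members, lists and rules were chosen with earlier results of these data known. The rule on reads in all or no libraries, the flanks, the gene classes and the display of the Hoxd3 and Hoxd13 promoters were chosen after seeing the data. Replicate numbers pair the vehicle libraries of both fractions: deviations from the group means of same-numbered libraries correlated at r = 0.183, 0.150 and 0.151 across genes. The TSA libraries of both fractions gave r = 0.212, which with 2 libraries a group is the same for both numbers. TSA and vehicle libraries of the same number gave -0.0861 to -0.00185. Intervals and floors cover counting error only.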

Additional observations from a re-analysis of the deposited data

How the results depend on the processing

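No Hox gene was called in RNA under any alternative run. None had reads in more than 1 library or over 5 reads, so these fits could hardly have called any. In H3K9ac, 0 Hox windows were higher with TSA in Tbr2-positive nuclei under any alternative. With the replicate block 0 Hox genes were called, while calls over all genes for TSA against vehicle came to 13 (Tbr2-positive) and 14 (Tbr2-negative), beside 0 and 236 without it. That block joined TSA and vehicle libraries by number, although these did not correlate positively. Among the lists it ended 8 calls for Tbr2-positive against Tbr2-negative, those of Rarg and Pou4f1 in vehicle and of Eed, Jarid2, Csf1r, C1qc and Slc18a3 in TSA included, and no other. Without the low-count filter edgeR called 364 (Tbr2-positive) and 944 (Tbr2-negative) genes for TSA, and 401 (Tbr2-negative) with only the libraries compared. For the TSA effect DESeq2 called 1015 genes (Tbr2-positive) and 2001 (Tbr2-negative), 3009 for the fractions in TSA (1871 in edgeR) and 11 for the difference of the TSA effects (0). Leaving out a library gave 0 to 39 calls for TSA in Tbr2-positive, 0 to 677 in Tbr2-negative (0 without either Tbr2-negative TSA library, Tbr2-negative vehicle replicate 1 or 3, or Tbr2-positive vehicle replicate 2), and 683 to 1953 for the fractions in TSA. Summed Hox CPM in Tbr2-negative TSA was 0 to 0.209 without either library.

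For the covered share of the clusters, Tbr2-positive TSA minus vehicle was 0.0489 percentage points with equal numbers of peaks, a reversal of -0.208, and -0.0194 at q below 1e-5 and -0.290 within lane 2. Tbr2-positive minus Tbr2-negative was -0.362 in vehicle with equal numbers, and in TSA -0.318 with equal numbers, -0.356 at q below 1e-5, -0.751 within lane 2 and -0.355 within lane 3. In Tbr2-negative nuclei TSA minus vehicle was -0.184 within lane 3. The Hox windows lower with TSA in Tbr2-positive nuclei numbered 1 at q below 0.01, 0 at q below 1e-5, 0 with equal numbers and 1 without margin, and lost regions 0 under each of the first 3 and with 50% overlap. The 1 window higher with TSA in Tbr2-negative nuclei became 0 at q below 1e-5, with equal numbers and without margin. Lost regions in Tbr2-positive against Tbr2-negative vehicle were 2 at q below 1e-5 and with equal numbers, and in TSA 2 with 50% overlap, where lower windows were 1 at q below 1e-5 and 5 with 5 kb. Windows with a peak in 50% or more of the libraries were 1 (Tbr2-positive TSA), 0 (Tbr2-positive vehicle) and 4 (Tbr2-negative vehicle) at q below 1e-5, 0 and 4 in the vehicle groups with equal numbers, and 7, 8, 13 and 17 with 5 kb in Tbr2-positive TSA, Tbr2-positive vehicle, Tbr2-negative TSA and Tbr2-negative vehicle. Leaving out a library gave 1 to 4, 6 to 9, 6 and 6 to 9 such windows in these groups. It gave 1 to 2 lost regions in Tbr2-positive TSA against vehicle and in Tbr2-positive against Tbr2-negative nuclei under either treatment, 3 to 5 lower windows between the fractions under either treatment, and 1 to 2 higher windows with TSA in Tbr2-negative nuclei. The lowest count of Tbr2-positive TSA windows came without replicate 1. The 2 lost regions came without Tbr2-positive TSA replicate 2 in both TSA comparisons, without Tbr2-positive vehicle replicate 3 in vehicle, and also without Tbr2-negative TSA replicate 4 between the fractions in TSA. The 5 lower windows came without Tbr2-positive vehicle replicate 3 in vehicle and Tbr2-negative TSA replicate 4 in TSA, and the 2 higher windows without Tbr2-negative vehicle replicate 3. For windows with a peak in 50% or more of the libraries, leaving out a library also changed the rule. In Tbr2-positive vehicle the rule then asked for 1 of 2 instead of 2 of 3 libraries, so the count could not fall. In the other groups it asked for 2 of 3 instead of 2 of 4, so the count could not rise. The cause of the other shifts was not tested. A peak list records no signal under its threshold, so depth limits what a window without a peak shows.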

Other observations

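Halr1, the noncoding RNA beside the Hoxa cluster, had 0 counts in all 5 Tbr2-positive libraries, and 2 and 17 counts in Tbr2-negative TSA against 0, 1 and 7 in Tbr2-negative vehicle libraries. It lay below the filter and was not tested, and the Tbr2-negative ranges overlapped. Cdx4, an inducer of tailward Hox genes, had 15 counts in Tbr2-positive TSA library 2 and 0 in library 1, against 0 in all 3 Tbr2-positive vehicle libraries, while Tbr2-negative vehicle library 2 held 3. Myod1, the muscle regulator, had 7 counts in the same Tbr2-positive TSA library 2 and 0 in the other 9 libraries, while its window carried an H3K9ac peak in 4 of 4 Tbr2-negative TSA and 4 of 4 Tbr2-negative vehicle libraries and in 0 Tbr2-positive ones. These 3 genes were chosen after their values were seen.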
